A study of Arabidopsis thaliana with 8 samples.

Results

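Cufflinks, the transcript assembler named in the submitters' processing notes, can list loci that match no gene of the annotation it was given. In the gene table of this study such a locus carries a hyphen in place of a gene name. The loci described here are all rows with a hyphen on chromosomes 1 to 5. They number 247 of the 32232 loci in the table, or 0.766%. Another 18 unnamed loci lie on the mitochondrial genome and are not members, and no unnamed locus lies on the chloroplast genome. The choice used only name and chromosome, so no expression value entered it.

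The libraries came from inflorescences of Arabidopsis thaliana plants grown at 22 °C under a cycle of 16 h of light and 8 h of dark. They form 4 groups of 2 libraries. Wild-type plants of the Columbia ecotype (Col-0) and dbr1-2 mutants in the Columbia background each gave 2 libraries without RNase R and 2 from RNA kept with that enzyme at 37 °C for 2 h. Ribosomal RNA was removed from all of them. Removal of mRNA is named as well in 7 of the tags, but not in that of dbr1-2 replicate 1 with RNase R. The tags of all libraries of a genotype carry the same sample code, so the p-values may measure only technical spread. Each replicate pair differed by more than counting error, with a chi-square per degree of freedom of 1.29 to 1.70.

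The product of DBR1, the lariat debranching enzyme, cleaves the branch bond that closes an excised intron into a loop. RNase R is an exonuclease that digests linear RNA from its 3′ end and leaves lariat loops and circular RNA, so a digested library reports RNA that withstood it. Unnamed loci of an assembly can be non-coding RNAs, transcribed repeats, stretches of introns or pieces of annotated genes. Small nucleolar RNAs (snoRNAs) guide the chemical modification of ribosomal RNA. Satellite repeats are tandem arrays that make up much of the centromeres.

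The sequences of 8 members are shown, since the largest values and differences below belong to them. They were read from the TAIR10.1 assembly, on the plus strand unless stated. The first 3 are copies of a dispersed repeat, and the capitals mark a 12-base motif described below. XLOC_019813 lies at chr3:19622330-19622577, XLOC_031941 begins at chr5:6398118-6398417, and XLOC_024734 is chr4:2335165-2335450 on the minus strand.
XLOC_019813: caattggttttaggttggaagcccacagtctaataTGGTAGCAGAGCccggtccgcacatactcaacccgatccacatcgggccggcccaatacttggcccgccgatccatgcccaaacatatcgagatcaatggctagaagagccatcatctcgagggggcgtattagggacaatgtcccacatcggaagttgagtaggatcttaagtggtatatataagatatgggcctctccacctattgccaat
XLOC_031941: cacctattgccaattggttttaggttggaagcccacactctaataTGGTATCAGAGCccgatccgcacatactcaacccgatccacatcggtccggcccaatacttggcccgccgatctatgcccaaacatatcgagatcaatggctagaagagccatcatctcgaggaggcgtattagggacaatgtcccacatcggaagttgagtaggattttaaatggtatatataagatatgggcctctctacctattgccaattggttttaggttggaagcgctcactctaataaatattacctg
XLOC_024734: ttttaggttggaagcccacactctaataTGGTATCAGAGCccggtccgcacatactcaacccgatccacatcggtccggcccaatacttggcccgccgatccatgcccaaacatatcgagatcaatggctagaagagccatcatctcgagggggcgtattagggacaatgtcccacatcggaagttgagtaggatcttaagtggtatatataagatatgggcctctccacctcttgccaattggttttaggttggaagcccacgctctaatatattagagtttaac

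A pair of sequences come from tandem arrays. XLOC_022784, at chr4:4011576-4011705, is a stretch of the satellite that recurs every 178 bases. The central 300 bases of XLOC_031948, at chr5:11184939-11185238, come from an array whose commonest spacing is 506 bases.
XLOC_022784: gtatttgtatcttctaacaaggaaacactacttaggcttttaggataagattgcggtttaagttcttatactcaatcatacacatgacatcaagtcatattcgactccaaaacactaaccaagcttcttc
XLOC_031948: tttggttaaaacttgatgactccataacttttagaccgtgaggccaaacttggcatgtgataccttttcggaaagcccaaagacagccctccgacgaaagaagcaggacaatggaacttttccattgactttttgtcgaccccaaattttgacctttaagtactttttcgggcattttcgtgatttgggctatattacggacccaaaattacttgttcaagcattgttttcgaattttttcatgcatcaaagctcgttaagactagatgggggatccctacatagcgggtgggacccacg

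The remaining 3 are not repeats with 10 or more copies. The central 300 bases of XLOC_008030, at chr1:29428043-29428342, come from the member with the highest FPKM. The stretch of XLOC_031940 at chr5:5448918-5449170 is the annotated snoRNA gene AtsnoR106 (AT5G02565). XLOC_008009, at chr1:11670527-11670743, carries no annotated gene.
XLOC_008030: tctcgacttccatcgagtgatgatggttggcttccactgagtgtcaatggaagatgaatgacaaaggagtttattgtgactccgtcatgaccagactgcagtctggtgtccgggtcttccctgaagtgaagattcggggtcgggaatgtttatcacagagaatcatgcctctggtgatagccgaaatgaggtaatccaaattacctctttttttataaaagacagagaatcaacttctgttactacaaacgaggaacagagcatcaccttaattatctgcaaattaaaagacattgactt
XLOC_031940: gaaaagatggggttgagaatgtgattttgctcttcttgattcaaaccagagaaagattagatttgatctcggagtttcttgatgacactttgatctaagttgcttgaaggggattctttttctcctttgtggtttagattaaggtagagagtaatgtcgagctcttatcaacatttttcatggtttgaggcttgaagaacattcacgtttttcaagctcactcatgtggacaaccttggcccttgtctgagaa
XLOC_008009: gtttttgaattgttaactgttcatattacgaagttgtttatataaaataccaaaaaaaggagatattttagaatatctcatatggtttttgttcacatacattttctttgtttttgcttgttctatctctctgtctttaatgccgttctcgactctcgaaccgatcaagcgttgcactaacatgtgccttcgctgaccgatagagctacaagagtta

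Chromosomes 1 to 5 hold 55, 32, 48, 50 and 62 members. The table has no strand column, but locus numbers run in blocks on each chromosome. The first block follows genes of the plus strand, the next follows genes of the minus strand, and the third block, at the end, holds unnamed loci alone. The plus block has 51 members, the minus block 69 and the third block 127. No source used here says whether the loci of the third block were assembled without a strand.

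Of the 247 members, 202 have an interval of their own and 45 share the interval of another locus, 39 of them with a named one. Own intervals run from 130 to 9121 bases, with a median of 848. Members with their own interval lie close to genes: 77 are within 500 bases of a named locus, 127 within 1000 bases and 197 within 5000 bases. Their median distance to it is 682 bases. Although unnamed in the table, 139 of them overlap a gene of the TAIR10.1 annotation, and 63 overlap none. Long non-coding RNA genes are overlapped by 87 and protein-coding genes by 40, while 6 cover snoRNA genes. Their median GC content is 33.9% in the plus and minus blocks and 35.3% in the third block, against 36.0% over the nuclear genome.

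Tandem and dispersed repeats are part of the set. Members with at least 10 further copies in the genome number 17, of which 9 have 100 or more. The 7 members XLOC_022776, XLOC_022784, XLOC_024735, XLOC_029898, XLOC_029900, XLOC_029901 and XLOC_029902 belong to a satellite with a commonest spacing of 178 bases, and each matches 1204 to 1694 places on all 5 chromosomes. XLOC_018435 and XLOC_031948 belong to arrays with a commonest spacing of 506 bases, and match 469 and 497 places. Another 3 members, XLOC_019813, XLOC_024734 and XLOC_031941, are 95.8% to 98.4% identical to each other and have 12 or 13 copies on 4 chromosomes. Reads from such copies may have been divided among them, so the level of 1 copy is uncertain.

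The dispersed copies carry a motif complementary to the end of a tRNA. The letters TGGTATCAGAGC, searched on both strands, are in XLOC_024734 and XLOC_031941 and in 1 more of the 202 members with their own interval, XLOC_019804. Of 397152 nuclear windows of 300 bases, 0.104% hold it. In XLOC_019813 the best match differs at 1 base, T6G, counted from 1 at the 5′ end of the motif, and reads TGGTAGCAGAGC. The motif is the reverse complement of a tRNA end, GCTCTGATA, with the CCA that is added to tRNAs, and the 8 nuclear tRNA genes that end in these letters all encode tRNA-Met. The form in XLOC_019813 is that of GCTCTGCTA with CCA, the end of 1 nuclear tRNA gene, also of tRNA-Met, and 0.00252% of the windows hold it. Both forms were picked as tRNA-Met ends that occur in a member. In retroelements, such a stretch is known as the primer binding site for reverse transcription. A match is a description of letters only.

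Most members were near the lower limit of the measurement. The table gives FPKM, fragments scaled to transcript length and to the mapped fragments of the library. Only 55 members (22.3%) reached 1 FPKM in at least 2 of the 8 libraries and were tested, against 44.6% of named nuclear loci. A member could pass through 1 group alone, so counts over these 55 describe them and no wider set. Without RNase R, 15 members were at 1 FPKM or more in both Col-0 libraries and 17 in both dbr1-2 libraries, and with RNase R 31 were in each genotype. Members made up 0.0951% to 0.107% of the summed FPKM of a library without RNase R and 0.0524% to 0.162% with it.

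Steps in the low values gave the worth of a fragment. Over 1000 bases it was 0.0110 to 0.0133 FPKM without RNase R and 0.0806 to 0.116 with it. Among the 94 members of the third block with their own interval of at least 400 bases, the median was 4 to 5 fragments without RNase R and 0 with it. At 3 fragments or fewer, which cannot be told from 0, were 36 to 42 of them without RNase R and 80 to 87 with it. Summed FPKM over all loci lay between 295494 and 384482 without RNase R and between 2796449 and 4003096 with it, so FPKM compares shares of each library, not amounts per plant. Fewer cells of a type and less RNA per cell cannot be told apart in these samples.

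The tissue label was checked with 8 floral genes. APETALA1, APETALA3, PISTILLATA, AGAMOUS and SEPALLATA1 to SEPALLATA3 lay between 3.83 and 21.3 FPKM in every library without RNase R, while LEAFY was at 0.0470 to 0.158. The root genes EXP7 and RHD6 were at 0 to 0.0223, and COBL9 at 0.212 to 0.381. Some markers differed between the genotypes. Of the pollen genes, VGD1 was at 11.3 and 9.18 FPKM in undigested Col-0 libraries and at 3.39 and 2.66 in dbr1-2 ones, and AGP6 and AGP11 were lower in dbr1-2 too. Of the leaf genes, RCA was at 110 and 118 against 283 and 297, RBCS1A was also higher in dbr1-2 and LHCB1.3 lower. Their part in the genotype differences below was not tested. DBR1 itself was at 0.662 and 0.694 FPKM in Col-0 and at 0.339 and 0.430 in dbr1-2 without RNase R. With RNase R it was at 0.202 and 0.188 in Col-0, against 0.265 and 0.260 in dbr1-2. DBR1 was lower in dbr1-2 without digestion and not with it, and it was too low to be tested.

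**Figure D1:**
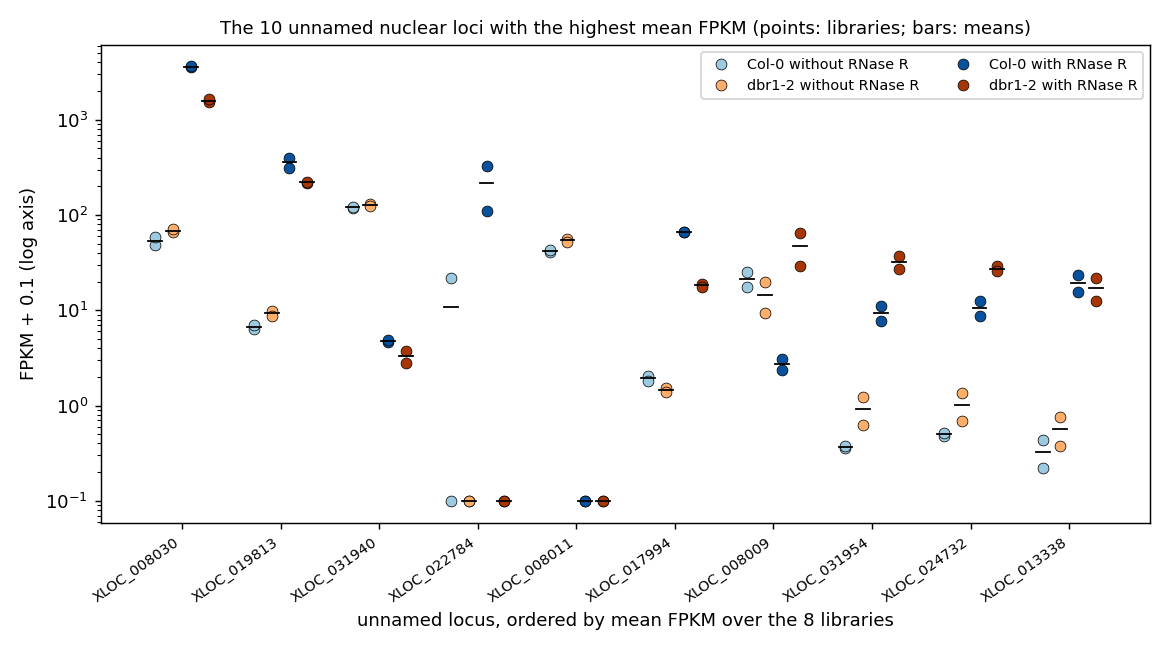
FPKM plus 0.1 on a log axis for the 10 unnamed nuclear loci with the highest mean. Points are the 8 libraries, coloured by genotype and RNase R, and bars are means of 2 libraries. XLOC_008030 rose from 48.5 to 70.8 FPKM without RNase R to 1549 to 3637 with it, while XLOC_031940 fell from 119 to 132 to 2.73 to 4.76.

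A few loci carried most of the signal, as the plot of the highest members shows. Without RNase R, XLOC_031940, which covers the snoRNA genes AtsnoR106 and AtsnoR106b, made up 35.2% to 38.8% of the summed FPKM of all members. With RNase R, XLOC_008030 made up 73.8% to 84.1%. In all 8 libraries, 5 members were at 1 FPKM or more. Another 10 were so in all 4 libraries with RNase R and below 1 in all 4 without it, and 6 showed the reverse. The same was not counted over all loci, so these counts show nothing particular to unnamed loci.

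The first comparison asks which of these RNAs withstood RNase R. Among the 55 tested members, 33 were higher with RNase R in Col-0 and 15 lower, 48 in all, by limma on log2(FPKM + 1) with Benjamini-Hochberg adjustment. Of all loci tested in Col-0, 79.3% were called, 8.27% higher and 71.0% lower. In dbr1-2, 34 members were higher and 10 lower, 44 in all, against 84.3% of all loci, 15.0% higher and 69.3% lower. Over members the median log2 difference was 0.77 in Col-0 and 0.92 in dbr1-2, and over all loci -0.66 and -0.69. These medians treat a value listed at 0 as 0 on the log2(FPKM + 1) scale.

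Most rises among the tested members were shared by the genotypes: 29 members were higher in both, 10 lower in both and 2 called in opposite directions. Shared calls were not counted over all loci, so these counts show nothing particular to unnamed loci. With no filter on low values, 50 of the 247 members were higher in Col-0 and 69 lower, against 52.8% of all loci called, 6.80% higher and 46.0% lower. In dbr1-2, 38 were higher and 61 lower, against 54.0% called, 8.34% higher and 45.7% lower. The median log2 difference over members was then -0.05 in Col-0 and -0.06 in dbr1-2, and over all loci -0.21 and -0.18. The positive medians thus belong to the members that passed the filter. Within single tag years, all 48 and all 44 differences had the same direction. The split between rises and falls depends on the scaling. With organelle and ribosomal RNA loci removed and the rest rescaled, which lets 118 members be tested and moves the median of all loci to -2.84 and -2.88, 20 were higher and 92 lower in Col-0 and 14 and 92 in dbr1-2. Of the 18848 loci then tested, 187 were higher and 18413 lower in Col-0, and 233 and 18326 in dbr1-2. Median-ratio scaling gave 35 and 12 in Col-0, against 36 and 7 in dbr1-2, with medians of all loci of -0.05 and -0.07. Of the 14351 loci tested, it gave 4060 higher and 4451 lower in Col-0, and 4381 and 4612 in dbr1-2. Quantile normalization gave 38 and 10 in Col-0, against 4192 and 4260 of all loci.

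**Figure D2:**
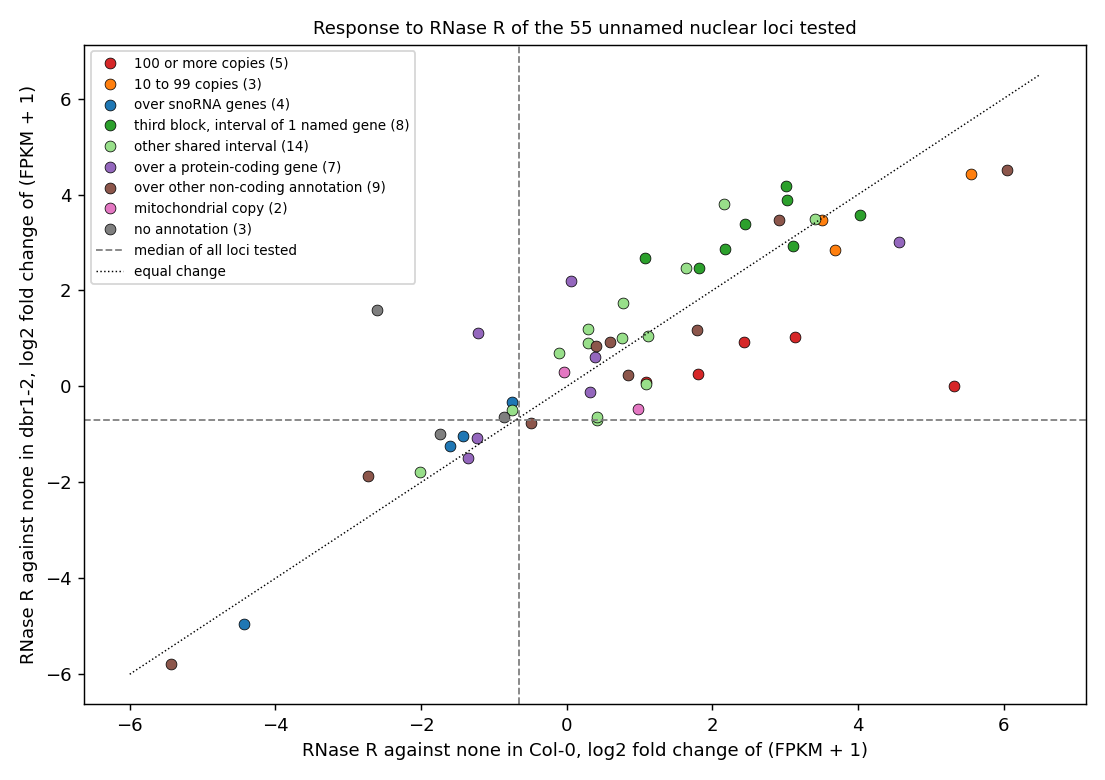
Log2 fold change of FPKM + 1 with RNase R against none in Col-0 (horizontal axis) and in dbr1-2 (vertical axis), 1 point for each of the 55 members tested, coloured by kind of locus. The dashed lines are the medians of all loci tested, -0.66 and -0.69, and the dotted line marks equal change. All 8 loci of the third block that share the interval of 1 named gene lie above 1 on both axes, and the 4 over snoRNA genes lie below 0. The former 8 passed the filter through groups other than undigested Col-0, so their count supports nothing.

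The non-coding locus XLOC_008030, shown above, reached the highest level of any member. Its interval of 628 bases at chr1:29427879-29428506 overlaps the exons of the long non-coding RNA genes AT1G09793 on the minus strand and AT1G09797 on the plus strand. It was at 48.5 and 58.6 FPKM in Col-0 and 65.8 and 70.8 in dbr1-2 without RNase R. With RNase R it was at 3550 and 3637 in Col-0, against 1549 and 1635 in dbr1-2. Every library with RNase R stood far above every one without it. The log2 fold change was 6.05 (SE 0.12, adjusted p = 1.40e-07) in Col-0 and 4.52 (adjusted p = 3.43e-07) in dbr1-2. By the worth of 1 fragment, these levels came from 1854 to 2240 fragments per undigested library and from 8513 to 17328 per digested one. The nearest named loci are AT1G78220, 697 bases to its left, at 0 to 0.143 FPKM, and AT1G78230, 1718 bases to its right, at 0.553 to 3.04.

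The 3 dispersed copies, shown above with the tRNA-complementary motif or its variant, were all higher in digested RNA. XLOC_019813 was at 6.20 and 6.92 FPKM in Col-0 and 9.79 and 8.66 in dbr1-2 without RNase R, and at 398 and 315 and 216 and 224 with it. XLOC_024734 was at 0 to 0.491 without RNase R and at 16.5 and 16.9 in Col-0, against 4.48 and 11.2 in dbr1-2 with it. XLOC_031941 was at 0.0972 to 0.329 without RNase R and at 9.79 to 15.5 with it. For each copy, all 4 digested libraries were above all 4 undigested ones. The log2 fold changes in Col-0 were 5.55, 3.68 and 3.50, those in dbr1-2 were 4.43, 2.85 and 3.46, all with a limma adjusted p of 9.24e-05 or lower.

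Other copies of the dispersed repeat lie over 6 annotated genes, and the listed values of AT5G52080 and AT2G27540 were erratic. AT2G18320 and AT5G53410 were listed at 0 throughout, and AT3G20950 and AT5G48000 at no more than 0.00804 and 0.0785. AT5G52080 was listed at 547 FPKM in Col-0 replicate 1 without RNase R and at 2769 in Col-0 replicate 1 with it, and at 0 in all other libraries. AT2G27540 was listed at 59.2 in Col-0 replicate 1 and 22.5 in dbr1-2 replicate 2 with RNase R and at 0 elsewhere. How reads were divided between the copies was not tested.

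The satellite loci were close to 0 without RNase R and higher with it in Col-0. Of the 9 members with 100 or more copies, both Col-0 libraries with RNase R were above both without it in 8, and the same held for dbr1-2 in 4. How many of all loci did so was not counted, so these counts show nothing particular to satellites. Among the 5 that passed the filter, all 5 were called higher in Col-0 and 3 in dbr1-2, but they passed through the digested Col-0 libraries, so these counts support nothing. XLOC_024735, at chr4:3953429-3953812, had 0.307 and 0.131 FPKM in undigested Col-0 libraries and 10.7 and 8.60 in digested ones, a log2 fold change of 3.13 (SE 0.22, adjusted p = 1.04e-05). In dbr1-2 it was at 0.146 and 0.0745 without and at 0.802 and 1.91 with RNase R, a log2 fold change of 1.04 (adjusted p = 0.00230). XLOC_022784, only 130 bases long, was listed at 21.5, 0, 0 and 0 without RNase R, and with it at 326 and 109 in Col-0 and at 0 in both dbr1-2 libraries. For a locus this short, a few fragments can give a high FPKM, and an exact 0 can be a failed estimate.

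Set beside the other repeats, XLOC_022784 is the exception in scale. Summed over the other 8 members with 100 or more copies, undigested Col-0 libraries gave 0.754 and 0.144 FPKM and undigested dbr1-2 libraries 0.226 and 0.153. With RNase R the sum was 21.9 and 18.8 in Col-0, against 1.69 and 4.26 in dbr1-2. The digested groups did not overlap, and each lay above the undigested libraries of its genotype. The counts behind them are small: XLOC_031948 had 9, 0, 1 and 1 fragments without RNase R, and 21 and 13 in Col-0, against 2 and 7 in dbr1-2 with it.

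A group of 13 members of the third block share their interval with exactly 1 named locus, and 8 of these were tested. All 8 were higher with RNase R in both genotypes. All 8 were below 1 FPKM in undigested Col-0 RNA and passed the filter through other groups, so the count supports nothing. XLOC_031954 shares its interval with SDG25 (AT5G42400), which encodes a histone methyltransferase also called ATXR7. It was at 0.258 and 0.279 FPKM in Col-0 and 1.12 and 0.525 in dbr1-2 without RNase R, and with it at 9.34 ± 2.35 (SD, n = 2) in Col-0 and at 37.0 and 27.2 in dbr1-2. XLOC_024732 shares the interval of FDM2 (AT4G00380), a member of a small family of proteins of RNA-directed DNA methylation. It was at 0.385 and 0.418 in Col-0, against 1.26 and 0.589 in dbr1-2 without RNase R, and at 8.66 and 12.4 and 28.8 and 25.5 with it. In both loci the digested groups stood above the undigested ones and did not overlap.

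Other members of this kind share the intervals of a transporter and a kinase gene. XLOC_013338, in the interval of the ABC transporter gene ABCG3 (AT2G28070), had 0.336 and 0.122 FPKM in undigested Col-0 libraries and 23.4 and 15.4 in digested ones. In dbr1-2 it was at 0.664 and 0.275 without and at 22.0 and 12.3 with RNase R. XLOC_008027, in the interval of AT1G63700 (YODA, a MAP kinase kinase kinase of stomatal and embryo patterning), had 0.474 and 0.442 in undigested Col-0 libraries and 10.8 and 12.4 in digested ones. Its dbr1-2 values were 0.916 and 0.574 without and 13.6 and 11.1 with RNase R. These loci rose to like levels in the genotypes, and their intervals are those of the whole gene, so where within it the reads lie is not known from the table.

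None of the 7 named partners that were tested was called higher in Col-0. There 5 were lower with RNase R, a share like the 71.0% of all loci, with log2 fold changes of -1.05 to 0.05. In dbr1-2, 1 was higher and 3 lower, between -1.27 and 0.42. SDG25 had 2.35 and 2.62 FPKM in undigested Col-0 libraries and 1.06 and 1.53 in digested ones. The count of reads that the unnamed locus and the gene at the same place may both claim is not known, so both levels are uncertain.

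**Figure D3:**
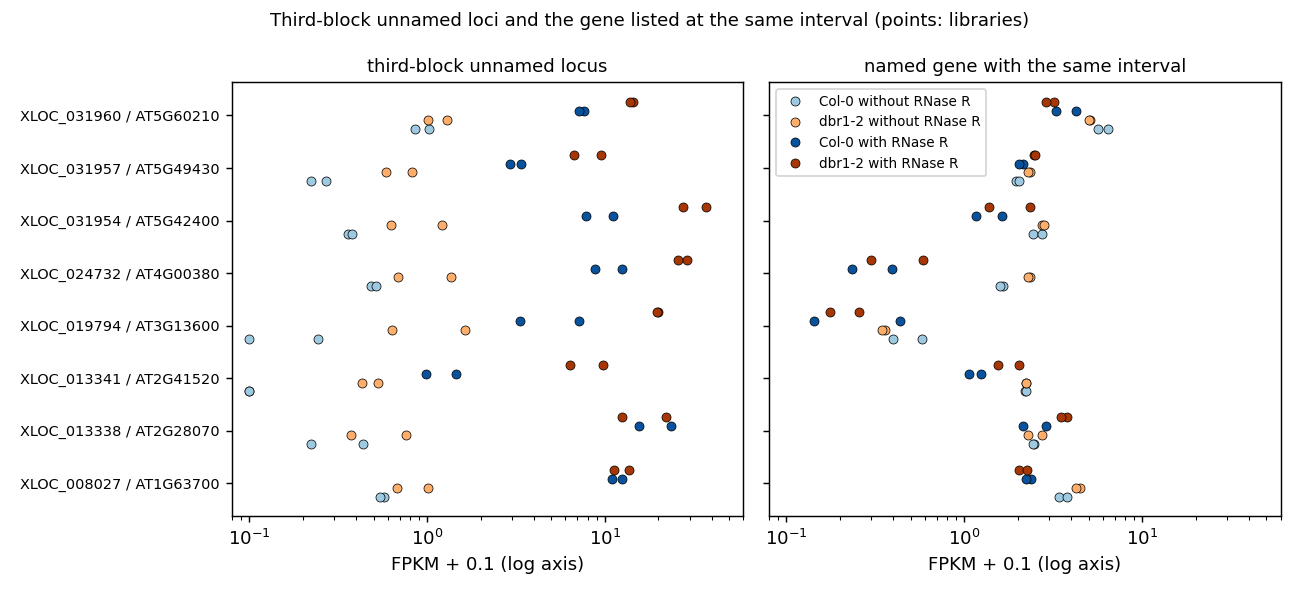
FPKM plus 0.1 on log axes for 8 loci of the third block (left) and for the named gene listed with the same interval (right), 1 point per library. With RNase R the unnamed loci lay at 0.890 to 37.0 FPKM and above all libraries without it, whereas SDG25 (AT5G42400) lay at 1.06 to 2.25 with RNase R and 2.35 to 2.70 without.

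A long unnamed locus on the minus block of chromosome 3 was also higher after digestion. XLOC_017994, at chr3:10032169-10038207, overlaps the protein-coding gene AT3G27185, the non-coding gene AT3G05185 and 3 long non-coding RNA genes. It was at 1.93 and 1.73 FPKM in Col-0 and 1.42 and 1.29 in dbr1-2 without RNase R, and at 65.8 and 66.8 and 18.9 and 17.4 with it. The log2 fold changes were 4.57 in Col-0 (adjusted p = 1.40e-07) and 3.02 in dbr1-2 (adjusted p = 5.26e-07). The groups did not overlap, and the next named gene, AT3G27190 at 916 bases, was between 0.704 and 1.31 in all libraries.

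XLOC_024751 covers the annotated U1.12p, a gene of the spliceosomal U1 RNA family. It was at 0.418 and 0.438 FPKM in Col-0 and 0.333 and 0.336 in dbr1-2 without RNase R, and at 8.48 and 11.1 and 17.6 and 10.7 with it. It rose in both genotypes, by a log2 fold change of 2.91 (SE 0.21) in Col-0 and 3.47 (SE 0.21) in dbr1-2, with limma adjusted p-values of 1.27e-05 and 5.13e-06. Fragments numbered 10 to 15 per library without RNase R and 39 to 92 with it. XLOC_029680, which shares its interval with the loci named AT5G27247 and AT5G27240,AT5G27250, was listed at 0 in all 4 libraries without RNase R and at 2.95 and 4.07 in Col-0, against 12.7 and 13.3 in dbr1-2 with it.

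The loci over snoRNA genes fell with RNase R, as most loci of the table did. All 4 that were tested were lower in Col-0 and 3 of 4 in dbr1-2, against 71.0% and 69.3% of all loci. XLOC_031940 was at 119 and 122 FPKM in Col-0 and 132 and 123 in dbr1-2 without RNase R, and at 4.53 and 4.76 and 2.73 and 3.62 with it. The change was -4.43 (SE 0.11, adjusted p = 3.45e-07) in Col-0 and -4.95 (SE 0.11, adjusted p = 2.62e-07) in dbr1-2 on the log2 scale. It is the most deeply covered member here, with 13734 to 15918 fragments without RNase R and 50 to 76 with it. XLOC_008021, which covers the snoRNA genes AtsnoR53Y, AtsnoR25, AtU29 and AtsnoR69Y, was at 1.59 to 2.36 without RNase R and at 0.232 to 0.379 with it. XLOC_024747, over AtsnoR109, was at 2.46 to 4.36 without and 0.310 to 0.795 with RNase R. In these 3 loci every digested library was below every undigested one.

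XLOC_031955, over AtsnoR148, was the weakest of them. Its log2 fold change was -0.75 (adjusted p = 0.0105) in Col-0 and -0.33 (adjusted p = 0.169) in dbr1-2, close to the median of all loci in Col-0. Beyond snoRNA genes, XLOC_008011, a locus of 189 bases over the end of the long non-coding RNA gene AT1G06537, was at 40.9 and 43.3 FPKM in Col-0 and 56.6 and 51.9 in dbr1-2 without RNase R and was listed at 0 in all 4 libraries with it. A locus of this length gives few countable fragments. XLOC_024096, at the start of the NAD(P)H dehydrogenase gene NDB1, was at 1.55 to 2.09 without and 0.148 to 0.429 with RNase R.

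The second comparison is that of dbr1-2 with Col-0 among digested RNAs. Of the 55 tested members, 35 were called, 20 higher and 15 lower in dbr1-2, against 37.0% of all loci, 29.9% higher and 7.09% lower. With no filter, 22 of 247 were higher and 27 lower, against 20.2% of all loci called, 14.7% higher and 5.45% lower. The median log2 difference was 0.13 over members and 0.15 over all loci. The Col-0 libraries with RNase R all carry the later year in their tags and the dbr1-2 libraries all the earlier one, so genotype and tag year cannot be told apart here. With the tag year as a covariate, estimated from the libraries without RNase R, 21 members were called. Other scalings gave 15 higher and 15 lower (median-ratio), 15 and 18 (quantile) and 10 and 9 (organelle and ribosomal RNA loci removed).

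**Figure D4:**
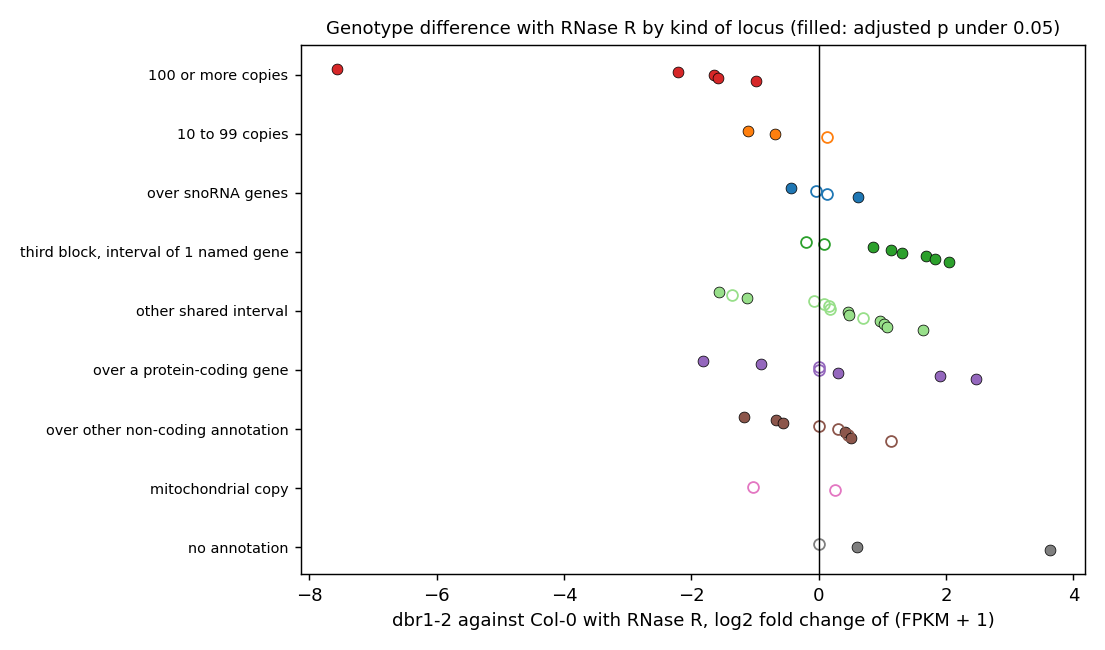
Log2 fold change of FPKM + 1 in dbr1-2 against Col-0 with RNase R for the 55 members tested, by kind of locus. Filled points passed the threshold of 0.05 on the adjusted p. All 5 loci with 100 or more copies were lower in dbr1-2, against 7.09% of all loci. Of 8 loci of the third block that share the interval of 1 named gene, 6 were higher, against 29.9%. The former passed the filter through digested Col-0 libraries and the latter mainly through digested libraries, so neither count supports a difference.

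Among the repeats, most of those with 100 or more copies were listed lower in dbr1-2. With no filter, only 1 of the 8 members with 10 to 99 copies was called, as lower, and their median log2 difference was 0.00. All 5 tested members with 100 or more copies were lower, and with no filter 8 of 9 were, against 5.45% of all loci. Most of the 9 belong to the same satellite, and reads may have been divided among its copies. They are thus not separate observations, and the count of 8 supports nothing either. The 5 reached 1 FPKM in both libraries of a group only in Col-0 with RNase R, so their count supports nothing. XLOC_024735 differed by -2.21 (SE 0.22, adjusted p = 1.88e-04) on the log2 scale. XLOC_029902, at chr5:11734732-11735290, was at 2.69 and 2.56 FPKM in Col-0 and at 0.217 and 0.209 in dbr1-2. XLOC_031948 was at 5.81 and 4.72 in Col-0, against 0.489 and 1.65 in dbr1-2, and XLOC_018435, of the same kind of array, at 1.13 and 1.18 and at 0 and 0.194. The genotypes did not overlap in any of these. With a pseudocount of 0.01 the calls of XLOC_018435, XLOC_029902 and XLOC_031948 were lost, although the log2 differences grew to -4.69, -3.56 and -2.53. Of the dispersed copies, XLOC_019813 was lower by a log2 fold change of -0.68 (SE 0.13, adjusted p = 0.00446) and XLOC_024734 by -1.11 (adjusted p = 0.0305), while XLOC_031941 did not pass the test (0.13, adjusted p = 0.675). With the tag year as a covariate neither of the former passed, at -0.69 (limma adjusted p = 0.0552) and -1.41 (adjusted p = 0.0979). XLOC_024734 also lost its call without either Col-0 library with RNase R, at -1.13 and -1.10, and without dbr1-2 replicate 1 with it, at -0.54.

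The RNase R-resistant loci XLOC_008030 and XLOC_017994, abundant in digested Col-0 RNA, were lower in dbr1-2 as well. XLOC_008030 differed by -1.17 (SE 0.12, adjusted p = 2.03e-04) and XLOC_017994 by -1.81 (SE 0.09, adjusted p = 1.17e-05), in limma's test on the log2 scale. Both dbr1-2 libraries were below both Col-0 libraries in each. XLOC_008030 lost its call with organelle and ribosomal RNA loci removed, at -1.55.

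Of the 8 tested members that share the interval of 1 named gene, 6 were higher in dbr1-2 and 0 lower, against 29.9% and 7.09% of all loci. They passed the filter mainly through digested libraries, and with no filter 6 of all 13 were higher, with a median log2 difference of 0.13. XLOC_031954, with SDG25, differed by 1.68 (SE 0.22, adjusted p = 7.35e-04) and XLOC_024732, with FDM2, by 1.31 (SE 0.20, adjusted p = 0.00163). XLOC_019794, in the interval of AT3G13600, was at 3.22 and 7.09 FPKM in Col-0 and 19.9 and 19.4 in dbr1-2 with RNase R. XLOC_013341, in the interval of TPR15 (AT2G41520), was at 1.35 and 0.890 in Col-0, against 6.22 and 9.61 in dbr1-2. The genotypes did not overlap in these 4 loci. The call of XLOC_019794, at 1.82, was lost with the tag year as a covariate, at 1.36. XLOC_013338 (-0.20, adjusted p = 0.632) and XLOC_008027 (0.08, adjusted p = 0.708) did not pass. Of the 7 partner genes tested, 2 were higher and 0 lower, with log2 differences of -0.24 to 0.42. Outside the shared intervals, AT5G42390, 306 bases to the left of XLOC_031954, was at 4.39 and 4.67 FPKM in Col-0 and 14.9 and 15.3 in dbr1-2. That log2 difference was 1.54 (limma adjusted p = 1.50e-05). AT4G00360, left of XLOC_024732, was also higher (0.49, adjusted p = 0.00787). The neighbours of XLOC_013341 on either side did not pass (-0.13 and 0.20).

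A protein-coding region was higher in digested dbr1-2 RNA than in every other library. XLOC_001296, at chr1:8861649-8862838, covers the whole of the protein-coding gene AT1G25277. It was at 0.122 and 0.161 FPKM in Col-0 and 0.413 and 0.463 in dbr1-2 without RNase R. With RNase R it was at 0.137 and 0.255 in Col-0 and at 5.64 ± 0.905 (SD, n = 2) in dbr1-2. The difference between digested groups was 2.47 (SE 0.12, adjusted p = 8.95e-06) on the log2 scale, and digested RNA differed from undigested in dbr1-2 (adjusted p = 2.88e-06) but not past the threshold in Col-0 (0.06, adjusted p = 0.621). The named locus AT1G25275, 284 bases to its left, was at 9.09 to 11.6 without RNase R and at 0 to 0.310 with it in every library.

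XLOC_008009 and XLOC_008005 were called in opposite directions by RNase R in the genotypes. XLOC_008009, which has no annotated gene and lies between AT1G32350 and AT1G32360 beside XLOC_008011, was at 25.3 and 17.5 FPKM in Col-0 and 19.8 and 9.28 in dbr1-2 without RNase R. With it, levels were 2.26 and 2.98 in Col-0, against 28.8 and 65.4 in dbr1-2. It fell by 2.61 (SE 0.43, adjusted p = 7.36e-04) in Col-0 and rose by 1.60 (SE 0.43, adjusted p = 0.00816) in dbr1-2 on the log2 scale, and the dbr1-2 libraries with RNase R were far apart from each other. XLOC_008005, at the start of CJD1, a gene of a chloroplast membrane protein, was at 0.804 and 2.03 in Col-0, against 1.43 and 0.251 in dbr1-2 without RNase R. With it, both Col-0 libraries listed the locus at 0, and dbr1-2 gave 2.33 and 3.23. These loci are 217 and 243 bases long, so their FPKM rest on few countable positions. The genotype difference of XLOC_008005 with RNase R, 1.91 on the log2 scale, was 1.80 with the tag year as a covariate and lost its call (limma adjusted p = 0.0596). The named locus of CJD1 (AT1G08640), 59 bases to its left, was at 5.78 and 5.10 FPKM in digested Col-0 and 14.6 and 12.2 in digested dbr1-2. That log2 difference was 1.16 (limma adjusted p = 1.56e-04). CJD1 rose with RNase R in dbr1-2 (0.76, adjusted p = 2.87e-04) and did not pass in Col-0 (-0.26, adjusted p = 0.0552). AT1G08650, on the right, did not differ past the threshold between digested genotypes (0.14, adjusted p = 0.481).

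The third comparison, dbr1-2 against Col-0 without RNase R, gave few calls in the main fit. Of the 55 tested members, 1 was higher and 1 lower, against 17.5% of all loci, 14.2% higher and 3.32% lower. XLOC_008011 was at 40.9 and 43.3 FPKM in Col-0 and 56.6 and 51.9 in dbr1-2, a log2 fold change of 0.36 (SE 0.09, adjusted p = 0.0306). XLOC_031961, which lies in an exon of AT5G60700, was at 0.587 and 0.726 in Col-0, against 0.124 and 0.292 in dbr1-2, a change of -0.46 (SE 0.12, adjusted p = 0.0401) from 17 and 20 fragments against 3 and 7. The groups did not overlap in either locus, yet both calls were lost when any 1 of the 4 libraries was left out, at 0.30 to 0.42 and -0.56 to -0.36. They were lost as well with the tag year as a covariate, at unchanged 0.36 and -0.46 (limma adjusted p = 0.0635 and 0.0509). XLOC_008011 fell to 0.16 with median-ratio scaling and to 0.21 with organelle and ribosomal RNA loci removed. With no filter, 7 of 247 members were higher and 6 lower, against 9.08% of all loci called, 6.82% higher and 2.26% lower. The highest member without RNase R, XLOC_031940, did not pass, with a log2 fold change of 0.08 (SE 0.11, adjusted p = 0.680). With organelle and ribosomal RNA loci removed, 42 of 118 members were called, against 2999 of 18848 loci. With only the 4 libraries compared, 14 of 55 members were called, against 5847 of 14351 loci.

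The interaction asks whether the response to RNase R differed between the genotypes. It was called for 19 of the 55 members, 9 with a larger log2 change in dbr1-2 and 10 with a smaller one, against 13.7% of all loci, 10.8% larger and 2.99% smaller. All 9 were also higher in dbr1-2 with RNase R and all 10 lower, since the comparisons share those libraries. Among the 8 tested members that share the interval of 1 named gene, 3 had a larger change in dbr1-2, and the other 5 did not pass. A smaller change was called for 4 of the 5 tested members with 100 or more copies, which their passing the filter through digested Col-0 libraries alone favours. XLOC_017994 changed by 1.55 less (SE 0.13, adjusted p = 5.34e-04) and XLOC_001296 by 2.14 more (SE 0.16, adjusted p = 4.45e-04) in dbr1-2 than in Col-0. With the tag year as a covariate, 9 members were called, 8 of them among the 19, against 676 of 14351 loci.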

How the data were processed

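Per the labels' protocols, total RNA was extracted with Trizol, depleted of ribosomal RNA, digested with RNase R where stated, purified and made into stranded libraries. Per the submitters' processing notes, the TAIR10 genome was used with TopHat2 2.0.13, Cufflinks 2.2.1 and Cuffnorm 2.2.1. The authors deposited the FPKM values. No source used here says how libraries were scaled against one another or if strand entered the counting. Positions were read as 0-based starts, since 10819 named loci then begin at their gene's start, against 135 otherwise.

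Tests used limma 3.58.1 in R 4.3.3 (lmFit, contrasts.fit, eBayes with a trend) on log2(FPKM + 1). The fit took the 14351 loci that reached 1 FPKM in 2 libraries or more, and all 8 libraries, with 4 residual degrees of freedom. Calls needed a two-sided Benjamini-Hochberg adjusted p under 0.05 over all loci tested in each comparison. Fold changes on this scale understate the change of low loci. The procedure was tested on simulated data. Copies were found with BLAST+ 2.17.0 at 80% identity and 50% coverage or more. Coordinates, genes and sequences are from RefSeq's TAIR10.1; all 30924 singly named loci matched to it overlapped their gene. Low values of 98.9% to 99.9% of gene estimates per library lay within 0.1 of whole fragments. Tables and plots used Python 3.11.15.

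Named members are, per comparison, up to 8 of the largest rises and falls past the threshold without overlap between groups (not asked of the interaction), the 10 with the highest mean and those listed at 0 in 1 group, with their neighbours. The members and lists were chosen with earlier results of these data known. In the libraries without RNase R, replicate 1 of both genotypes carries the earlier tag year and replicate 2 the later one, and the deviations of same-numbered libraries correlated at 0.303 over all loci. For the other pairs of groups the numbers share no date throughout, with correlations of -0.0506 to 0.0835. Alternatives were other pseudocounts, filters and scalings, the compared libraries alone, a replicate block, the tag year and each library left out.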

Additional observations from a re-analysis of the deposited data

Results flagged for a closer look

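The response to RNase R differed between the genotypes in 19 members by limma's interaction test with Benjamini-Hochberg adjustment, which is what brings them here. In each sentence the log2 change with RNase R is given for Col-0 and then for dbr1-2, followed by the difference, dbr1-2 minus Col-0. The part of the tag year in these differences was not tested apart from the covariate, since with RNase R it follows genotype.

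With the tag year as a covariate 8 of the 19 kept their call and 11 lost it, and with a pseudocount of 0.1, 9 kept it and 10 lost it.

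Of the repeats, 5 were called with a smaller change in dbr1-2, and the tandem ones passed the filter through digested Col-0 libraries alone. XLOC_024735 changed by 3.13 and 1.04, a difference of -2.08 (adjusted p = 0.00446). XLOC_029902 changed by 1.81 and 0.25, a difference of -1.56 (adjusted p = 3.94e-04). XLOC_031948 changed by 2.44 and 0.93, a difference of -1.51 (adjusted p = 0.0318). All 3 are tandem repeats with 100 or more copies, and XLOC_018435 is the fourth, with 1.09 and 0.10, a difference of -0.98 (adjusted p = 0.00378). The dispersed copy XLOC_019813 changed by 5.55 and 4.43, a difference of -1.12 (adjusted p = 0.00643). The calls of XLOC_024735, XLOC_018435 and XLOC_031948 were lost with a pseudocount of 0.1, at -2.28, -2.90 and -1.87, and with 0.01, at -2.06, -4.79 and -2.41. That of XLOC_029902 was lost with 0.01, at -3.26. XLOC_019813 lost its call with the tag year, at -1.13 (adjusted p = 0.0508), and with organelle and ribosomal RNA loci removed, at -1.39. The call of XLOC_031948 was lost with the tag year, at -1.71, with organelle and ribosomal RNA loci removed, at -1.11, and when any library without RNase R, or either Col-0 library with it, was left out, with differences of -1.71 to -1.31.

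Among loci over annotated genes, XLOC_017994 changed by 4.57 and 3.02, a difference of -1.55 (adjusted p = 5.34e-04). XLOC_008030, over long non-coding RNA genes, changed by 6.05 and 4.52, a difference of -1.52 (adjusted p = 0.00132). XLOC_002311 changed by 1.79 and 1.17, a difference of -0.62 (adjusted p = 0.0182), and XLOC_018106 by 0.84 and 0.24, a difference of -0.60 (adjusted p = 0.0220). These also cover non-coding genes and were below 1 FPKM without RNase R. XLOC_002311 and XLOC_018106 lost their calls with the tag year, at -0.65 and -0.61, and XLOC_008030 with organelle and ribosomal RNA loci removed, at -1.76. XLOC_026735, which shares its interval with another unnamed locus, changed by 1.09 and 0.06, a difference of -1.02 (adjusted p = 0.00659), which was -0.97 and not called with the tag year.

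Of the 8 tested members that share the interval of 1 named gene, 3 were called with a larger change in dbr1-2, and the differences of all 8 ran from -0.45 to 1.59. XLOC_013341 changed by 1.08 and 2.67, a difference of 1.59 (adjusted p = 0.00699). XLOC_031954 changed by 3.01 and 4.18, a difference of 1.18 (adjusted p = 0.0436), and XLOC_031960, with the gene RIP5, by 2.17 and 2.87, a difference of 0.70 (adjusted p = 0.0192). All 3 calls were lost with the tag year, at 1.54, 0.95 and 0.54 (adjusted p = 0.0671, 0.259 and 0.152), and with a pseudocount of 0.1, at 0.46, 0.53 and 0.64. XLOC_013341 reversed to -2.46 with a pseudocount of 0.01 and to -0.16 with organelle and ribosomal RNA loci removed, which brought the others to 0.26 and 0.32. The calls of the latter pair were lost also when either Col-0 library without RNase R or dbr1-2 replicate 2 without it was left out, and that of XLOC_031954 also without Col-0 replicate 2 or dbr1-2 replicate 1 with RNase R. Their differences then lay at 0.94 to 1.19 for XLOC_031954 and 0.60 to 0.76 for XLOC_031960.

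Of the others, XLOC_029680 changed by 2.16 and 3.80, a difference of 1.64 (adjusted p = 0.00135). XLOC_026639 changed by 0.29 and 1.20, a difference of 0.91 (adjusted p = 0.0149), and lost its call when any library without RNase R was left out, with differences of 0.87 to 0.95. XLOC_025984 changed by 0.29 and 0.91, a difference of 0.62 (adjusted p = 0.0153). With the tag year the latter pair were not called, at 0.87 and 0.55. All 3 share an interval with other loci. XLOC_001296 changed by 0.06 in Col-0, and by 2.14 more than that in dbr1-2 (adjusted p = 4.45e-04). The largest differences were those of the short loci XLOC_008009, which changed by -2.61 and 1.60, a difference of 4.22 (adjusted p = 0.00394), and XLOC_008005, which changed by -1.22 and 1.11, a difference of 2.33 (adjusted p = 0.0163). XLOC_008005 lost its call with the tag year, at 2.23, and without Col-0 replicate 2 without RNase R, at 1.96. Where a group is listed at 0, as for XLOC_008005, XLOC_013341 and XLOC_029680, the change depends on the pseudocount of 1 and is no fold.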

How the results depend on the processing

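Counts of members called moved with the filter and the scaling. With no filter 247 members were tested and with a mean of at least 5 FPKM 17, against 55. Over all loci, these numbers were 27445, 3281 and 14351. With organelle and ribosomal RNA loci removed, 118 members and 18848 loci were tested. Without RNase R, the 2 genotype calls became 13 with no filter, 0 with median-ratio scaling, 42 with organelle and ribosomal RNA loci removed, 14 with only the 4 libraries compared, and 0 to 1 with each library left out. With RNase R, the 35 genotype calls became 22 with a pseudocount of 0.01, 12 with a mean of at least 5, 19 with organelle and ribosomal RNA loci removed, and 21 with the tag year. Each library left out gave 28 to 37. The 48 calls for RNase R in Col-0 became 119 with no filter, 17 with a mean of at least 5, 112 with organelle and ribosomal RNA loci removed and 39 to 44 with each library left out. The 44 in dbr1-2 became 99, 16, 106 and 40 to 45. The 19 interaction calls became 9 with a pseudocount of 0.1, 10 with 0.01, 29 with no filter, 6 with a mean of at least 5, 9 with the tag year and 11 to 27 with each library left out. Of the undigested libraries, leaving out Col-0 replicate 2 gave 11 and leaving out dbr1-2 replicate 2 gave 12. The filters and the removal of organelle and ribosomal RNA loci change the number of loci tested, while leaving out a library does not. The cause of the other moves was not tested. Over all loci, genotype calls without RNase R went from 2518 to 2492 (no filter), 1175 (median-ratio), 2999 (organelle and ribosomal RNA loci removed) and 5847 (4 libraries). With RNase R, 5315 became 5237, 1771, 922 and 2423 in the order above. Calls for RNase R, 11375 in Col-0 and 12098 in dbr1-2, became 14497, 2713 and 18600, and 14821, 2882 and 18559. The 1973 interaction calls became 1517, 1474, 1748, 743 and 676.

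With the replicate block, counts were 2, 34, 48, 45 and 19, in the order of the comparisons above, and no count moved by over 1.5 times. Among 66 results for named members, 844 alternative values kept direction and call, 93 kept direction and lost the call, and 2 reversed: the interaction of XLOC_013341 was -2.46 with a pseudocount of 0.01 and -0.16 with organelle and ribosomal RNA loci removed. Depth limits low loci most: with RNase R, a single fragment is worth several times more FPKM than without it.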
